A study of Mus musculus with 48 samples.

Results

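The matrix metalloproteases (MMPs), the ADAMTS proteases, the ADAMTS-like proteins and the tissue inhibitors of metalloproteases (TIMPs) were followed through a mouse model of genetic dilated cardiomyopathy treated with a BET bromodomain inhibitor. Members were taken by gene name, as genes starting with Mmp and a digit, genes starting with Adamts, and Timp1 to Timp4. This gave 51 genes of 31920 in the ventricle tables and of 31741 in the cell fraction table. A member was kept in a table where at least 10 reads fell on it in 3 or more libraries, which left 39 members at 20 weeks, 39 at 8 weeks and 41 in the cell fractions. In all, 41 members were kept in at least 1 table and 39 in all 3. None of these rules used a difference between groups, but some members reached 10 reads in 3 libraries in 1 genotype alone. At each ventricular age these were Timp1, Mmp12 and Mmp3, through PLNR9C libraries, and in the cell fractions Mmp12 and Mmp25, through PLNR9C. Mmp13 was kept at 20 weeks and in the cell fractions only through wild type libraries. A genotype difference of such a member follows in part from the rule that kept it. So does a JQ1 difference where its vehicle libraries were those that reached 10 reads. A difference between the cell fractions does so where only non-myocyte libraries reached 10 reads. Such a member counts in the totals below without adding support to them.

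The 48 libraries formed 16 groups of 3, all from FVB mice under normal growth conditions. The groups were PLNR9C mice given JQ1, PLNR9C mice given vehicle, wild type mice given JQ1 and wild type mice given vehicle, with JQ1 at 50 mg/kg. Each of these 4 was sampled as whole left ventricle at 20 weeks (labelled DCM) and at 8 weeks (labelled preDCM), and as pooled cardiomyocytes and pooled cardiac non-myocytes at 16 weeks. PLNR9C is a mutant form of phospholamban, the small membrane protein that holds back the calcium pump of the sarcoplasmic reticulum, and JQ1 displaces BET proteins from acetylated chromatin. How the PLNR9C allele was made, the cell type that expresses it, the number of animals in a pool and whether both fractions came from the same animals were not stated in the sources used here. Total RNA was extracted with TRIzol and sequenced from Nextera libraries. Reads assigned to genes ranged from 18415351 to 26730918 per library at 20 weeks, from 16984138 to 27086694 at 8 weeks, from 10249780 to 13146653 in cardiomyocytes and from 10041094 to 11815003 in non-myocytes. The p-values measure the spread between the 3 libraries of a group.

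MMPs are zinc proteases that cut collagens, elastin, proteoglycans and many signalling proteins of the extracellular matrix, and most are made as inactive precursors. ADAMTS proteases are secreted relatives that bind the matrix through thrombospondin repeats and cut large proteoglycans, procollagens and other matrix proteins, while ADAMTS-like proteins share the binding domains but have no protease domain. TIMPs block the active site of MMPs, and Timp3 also blocks several ADAMTS and ADAM enzymes. In the heart these genes are known for remodelling of the matrix after injury and in heart failure.

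The start-site sequences of 4 members are shown because these 4 had the largest rises in PLNR9C ventricles at 20 weeks (values below), and 3 of them, Timp1, Mmp12 and Mmp3, were kept only through PLNR9C libraries. Each window runs from 250 bases before to 50 bases after a RefSeq start on GRCm38.p6. Adamts20 lies on the minus strand at chr15:94404301-94404600, Timp1 on the plus strand at chrX:20869916-20870215, Mmp12 on the plus strand with 2 windows at chr9:7344147-7344446 and chr9:7347124-7347423, and Mmp3 on the plus strand at chr9:7445572-7445871. Capitals mark 2 motifs, both searched on either strand. One is the AP-1 motif, spelled TGANTCA. The other is the TATA box, spelled TATAAA.
Adamts20: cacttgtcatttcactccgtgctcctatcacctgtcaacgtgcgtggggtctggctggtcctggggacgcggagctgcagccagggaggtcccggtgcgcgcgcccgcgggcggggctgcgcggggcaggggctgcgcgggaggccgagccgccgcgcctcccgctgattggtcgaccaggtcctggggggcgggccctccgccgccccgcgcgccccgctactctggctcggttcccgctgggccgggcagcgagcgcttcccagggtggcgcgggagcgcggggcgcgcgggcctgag
Timp1: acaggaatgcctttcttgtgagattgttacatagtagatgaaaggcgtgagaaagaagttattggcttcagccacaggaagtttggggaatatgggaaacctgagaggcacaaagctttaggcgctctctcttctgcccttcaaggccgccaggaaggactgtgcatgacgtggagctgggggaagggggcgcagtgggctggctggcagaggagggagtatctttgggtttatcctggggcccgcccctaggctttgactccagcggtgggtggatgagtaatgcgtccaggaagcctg
Mmp12, first window: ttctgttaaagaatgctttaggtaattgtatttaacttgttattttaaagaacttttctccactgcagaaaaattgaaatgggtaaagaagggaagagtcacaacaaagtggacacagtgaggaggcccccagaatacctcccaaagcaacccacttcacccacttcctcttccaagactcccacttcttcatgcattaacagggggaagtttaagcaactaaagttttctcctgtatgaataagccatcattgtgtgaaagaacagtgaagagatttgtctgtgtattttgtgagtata
Mmp12, second window: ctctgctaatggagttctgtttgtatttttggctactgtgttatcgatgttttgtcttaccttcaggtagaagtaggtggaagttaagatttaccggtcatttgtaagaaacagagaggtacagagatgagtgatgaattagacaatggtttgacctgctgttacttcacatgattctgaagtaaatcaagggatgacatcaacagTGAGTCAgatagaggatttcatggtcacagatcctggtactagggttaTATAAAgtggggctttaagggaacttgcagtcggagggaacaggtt
Mmp3: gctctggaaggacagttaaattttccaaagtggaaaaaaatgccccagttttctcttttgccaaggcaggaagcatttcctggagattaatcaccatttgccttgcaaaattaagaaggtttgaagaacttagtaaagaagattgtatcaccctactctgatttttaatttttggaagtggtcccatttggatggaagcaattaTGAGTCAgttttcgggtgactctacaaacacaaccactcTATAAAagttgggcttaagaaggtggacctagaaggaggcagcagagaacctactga
The second Mmp12 window and the Mmp3 window held both motifs, and the other 3 windows held neither. Of 32851 mouse windows of 300 bases, 7.81% held TGANTCA and 13.6% held TATAAA. Windows were found for 27 of the 41 kept members, 29 windows in all, of which 3 held TGANTCA and 5 held TATAAA.

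Mmp12, Mmp3 and Mmp13 lie close together on chromosome 9, in a run of 10 MMP genes at chr9:7272514-7699416 in the GRCm38 annotation, and only 4 of these 10 were kept in any table. Timp1 (chrX:20870166-20874737) lies inside Syn1, Timp3 (chr10:86300412-86349505) inside Syn3 and Timp4 (chr6:115245616-115251849) inside Syn2, each on the opposite strand. Mmp19 overlaps Tmem198b in part, also on the opposite strand. No source used here says whether counting used strand, so reads of these pairs cannot be told apart. Syn1 stayed at or below 1.58 CPM (read counts scaled to a common library size by TMM) in every ventricle library and 0.882 CPM in every cardiomyocyte library. In wild type with vehicle Syn1 had 0.557 to 0.649 CPM at 20 weeks, 0.294 to 0.469 CPM at 8 weeks and 0.172 to 0.620 CPM in cardiomyocytes. Each of these ranges overlaps that of Timp1 in the same wild type libraries (below). In non-myocytes with vehicle it had 2.36 to 3.48 CPM in PLNR9C and 1.18 to 2.3 CPM in wild type, and the wild type range lies close to the level of Timp1 in those wild type libraries (below).

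By RPKM (a level scaled to both library size and gene length), the order of levels differed between PLNR9C and wild type ventricles at 20 weeks with vehicle. In PLNR9C ventricles the highest members were Timp2 at 131.9, Adamtsl5 at 97.9, Mmp2 at 85.8, Adamtsl2 at 85.0 and Timp3 at 76.0 RPKM. In wild type ventricles they were Timp3 at 78.9, Adamtsl5 at 61.9, Timp2 at 47.0, Mmp15 at 41.2 and Adamtsl4 at 26.9 RPKM. Inhibitors and ADAMTS-like proteins took 4 of these 5 places in each genotype. The 10 members kept in no table were Adamts13, Adamts16, Adamts18, Mmp1a, Mmp1b, Mmp7, Mmp8, Mmp10, Mmp20 and Mmp21, and Mmp25 and Mmp27 were kept only in the cell fractions. No member outside the kept set had more than 15 reads in a library at 20 weeks, 11 at 8 weeks or 9 in the cell fractions.

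Markers of other cell types moved with genotype, and their part in the member results was not tested. In the ventricle at 20 weeks with vehicle, the summed level of 10 fibroblast markers was 4010 to 4443 CPM in PLNR9C and 2124 to 2199 CPM in wild type, that of 7 activated fibroblast markers was 1020 to 1176 CPM in PLNR9C and 123 to 185 CPM in wild type, and that of 9 of the 10 macrophage markers was 641 to 881 CPM in PLNR9C and 216 to 234 CPM in wild type. The 9 cardiomyocyte markers summed to 25399 to 31524 CPM in PLNR9C and to 60229 to 69048 CPM in wild type. At 8 weeks the fibroblast sums lay closer, at 2418 to 2623 CPM in PLNR9C and 2009 to 2366 CPM in wild type, while macrophage sums were 506 to 557 CPM in PLNR9C and 187 to 237 CPM in wild type. In PLNR9C with vehicle the cardiomyocyte fraction held 5185% of the cardiomyocyte marker level of the non-myocytes, but also 10.5% of their fibroblast, 23.9% of their endothelial and 10.6% of their macrophage marker level. In wild type with vehicle these shares were 4351%, 4.30%, 22.8% and 4.86%. One library stood apart: replicate 2 of the PLNR9C-JQ1 cardiomyocytes had the highest fibroblast sum of that fraction, 4180 CPM, against 1421 CPM in the lowest library of its group.

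To determine which proteases and inhibitors differed in the mutant heart, PLNR9C and wild type libraries with vehicle were compared. In the ventricle at 20 weeks, 19 of the 39 tested members rose in PLNR9C and 6 fell at an adjusted p under 0.05 (edgeR's quasi-likelihood test, Benjamini-Hochberg over all genes tested), against 44.7% of all genes passing it, 23.3% higher and 21.4% lower. The rises include Timp1, Mmp12 and Mmp3 and the falls Mmp13, which were kept through 1 genotype alone. The median log2 fold change was 0.47 over the tested members and 0.01 over all genes. At 8 weeks 9 of 38 rose and 2 fell, a count of 11 that was 7 without PLNR9C-vehicle replicate 2, against 14.4% of all genes, 7.86% higher and 6.49% lower. Those 9 include Timp1 and Mmp12, kept at that age only through PLNR9C libraries. In cardiomyocytes 12 of 36 rose and 3 fell, against 26.1% of all genes, 14.3% higher and 11.8% lower. In non-myocytes 14 of 41 rose and 2 fell, against 18.6%, 10.3% higher and 8.32% lower. The non-myocyte rises include Mmp12 and the falls Mmp13, both kept in the cell fractions through 1 genotype alone. In whole ventricle, fewer cells of a type and less RNA per cell cannot be told apart. The rises included the inhibitors Timp1 and Timp2, the gelatinase Mmp2, the membrane-type protease Mmp14, Adamts2, Adamts20 and Adamtsl2, and the falls included Mmp15, Mmp13, Adamts3 and Adamts7.

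**Figure D1:**
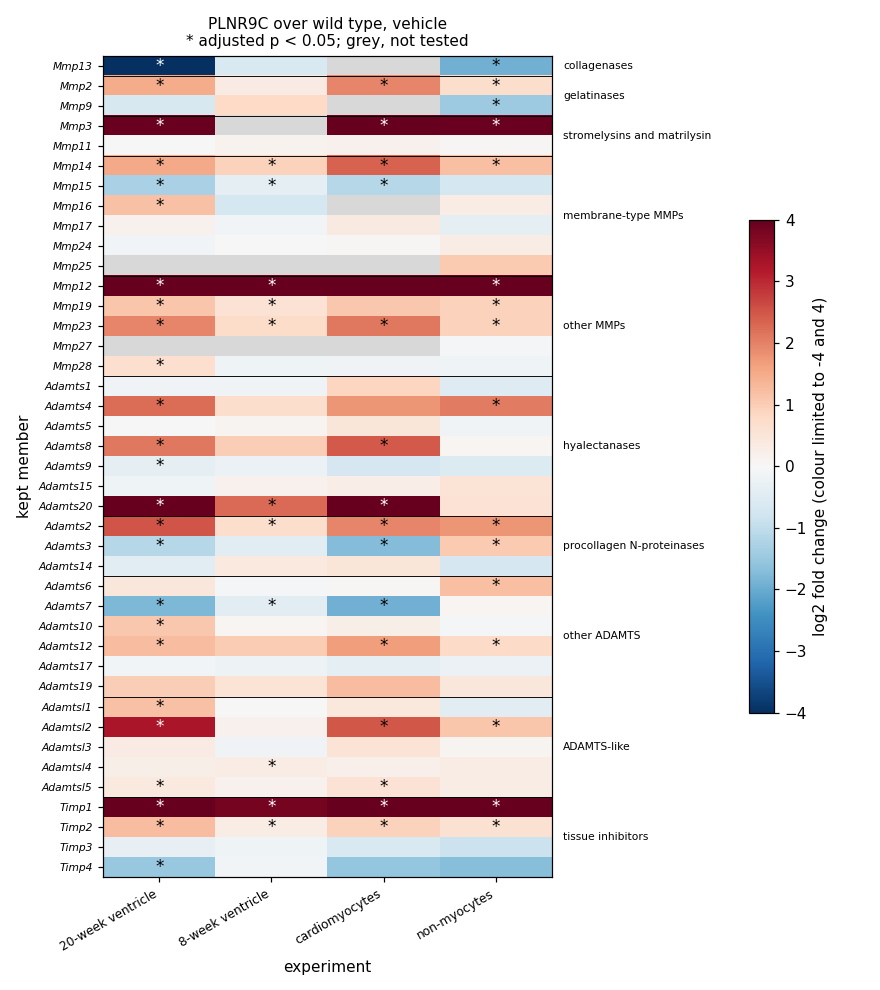
Log2 fold change of PLNR9C over wild type with vehicle for each kept member (rows, grouped by role) in the 20-week ventricle, the 8-week ventricle, cardiomyocytes and non-myocytes (columns). Asterisks mark an adjusted p under 0.05 and grey marks members not tested; Timp1, Timp2, Adamts2, Mmp14 and Mmp23 are red with an asterisk in all 4 columns.

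Of the inhibitors, Timp1, a secreted inhibitor of most MMPs, had the largest rise and Timp2, which blocks Mmp2 and also takes part in its activation by Mmp14, had the highest level of those that rose. In PLNR9C ventricles at 20 weeks Timp1 had 12, 6.79 and 12.9 CPM, against 0.346, 0.799 and 0.557 CPM in wild type. In PLNR9C ventricles at 8 weeks it had 2.19, 3.33 and 2.38 CPM, against 0.0587, 0.0839 and 0.398 CPM in wild type, the last 3 values resting on 1, 2 and 8 reads. The groups did not overlap at either age, with log2 fold changes of 4.21 ± 0.29 (adjusted p = 6.2e-09) at 20 weeks and 3.82 ± 0.55 (adjusted p = 0.0002) at 8 weeks. Timp1 was kept in the ventricle only through PLNR9C libraries, so these 2 rises and the lack of overlap follow in part from the rule that kept it. In cardiomyocytes Timp1 had 6.95, 5.10 and 6.26 CPM in PLNR9C and 0.266, 0.258 and 0.473 CPM in wild type, a log2 fold change of 4.17 ± 0.51 (SE, adjusted p = 0.00012). In non-myocytes it had 95.8, 44.3 and 62.5 CPM in PLNR9C and 3.63, 4.14 and 2.74 CPM in wild type, a log2 fold change of 4.26 ± 0.37 (adjusted p = 3.7e-05). Its level in cardiomyocytes was 15.5% of that in non-myocytes in PLNR9C and 16.9% in wild type.

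Timp2 at 20 weeks had 432, 431 and 408 CPM in PLNR9C and 174, 205 and 163 CPM in wild type, a log2 fold change of 1.23 ± 0.10 (adjusted p = 5.9e-08). The lowest PLNR9C library lay above the highest wild type library. At 8 weeks Timp2 averaged 193 ± 12.5 CPM in PLNR9C and 158 ± 9.19 CPM in wild type (SD, n = 3 each), a log2 fold change of 0.29 ± 0.08 (adjusted p = 0.014), which was lost without PLNR9C-vehicle replicate 2 (0.076) or wild type-vehicle replicate 1 (0.091). In non-myocytes Timp2 rose by 0.62 ± 0.13 on the log2 scale (adjusted p = 0.0039). In cardiomyocytes it had 127, 110 and 126 CPM in PLNR9C and 67.8, 64.7 and 57.9 CPM in wild type, with an adjusted p of 0.022 that exceeded 0.05 without PLNR9C-vehicle replicates 1 (0.0586) or 3 (0.0636) or wild type-vehicle replicates 1 (0.0525), 2 (0.0583) or 3 (0.0824).

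Timp3, which is held in the matrix, did not pass the test in any of the 4 experiments. Its log2 fold changes were -0.32 ± 0.21 at 20 weeks and -0.18 ± 0.07 at 8 weeks in the ventricle, -0.60 ± 0.47 in cardiomyocytes and, in non-myocytes, -0.87 ± 0.43, where PLNR9C libraries ranged widely, from 353 to 1550 CPM. Syn3, the gene around Timp3, had with vehicle at 20 weeks 92.9 to 166 CPM in PLNR9C and 121 to 196 CPM in wild type. In non-myocytes with vehicle Syn3 had 168 to 741 CPM in PLNR9C and 561 to 1035 CPM in wild type. Reads shared by Timp3 and Syn3 cannot be told apart, also in the inhibitor sum below. Timp4 had 5.19, 5.14 and 2.82 CPM in PLNR9C ventricles at 20 weeks and 19.4, 9.82 and 8.41 CPM in wild type. That fall of 1.51 ± 0.47 on the log2 scale had an adjusted p of 0.026, which was lost without wild type-vehicle replicate 1 (0.089), without any of the 3 PLNR9C-vehicle libraries (0.053, 0.052 and 0.084) and without a filter on low counts (0.0523). At 8 weeks Timp4 differed by -0.11 ± 0.41. Syn2, the gene around Timp4, went the other way at 20 weeks, with 14.6 to 16.0 CPM in PLNR9C and 5.46 to 9.32 CPM in wild type. The 4 inhibitors together summed to 642 to 824 CPM in PLNR9C ventricles at 20 weeks and to 511 to 665 CPM in wild type, so the groups overlapped in total inhibitor RNA. Timp1 made up 1.40% of this sum in PLNR9C and 0.0968% in wild type, and Timp4 0.582% and 2.14%.

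**Figure D2:**
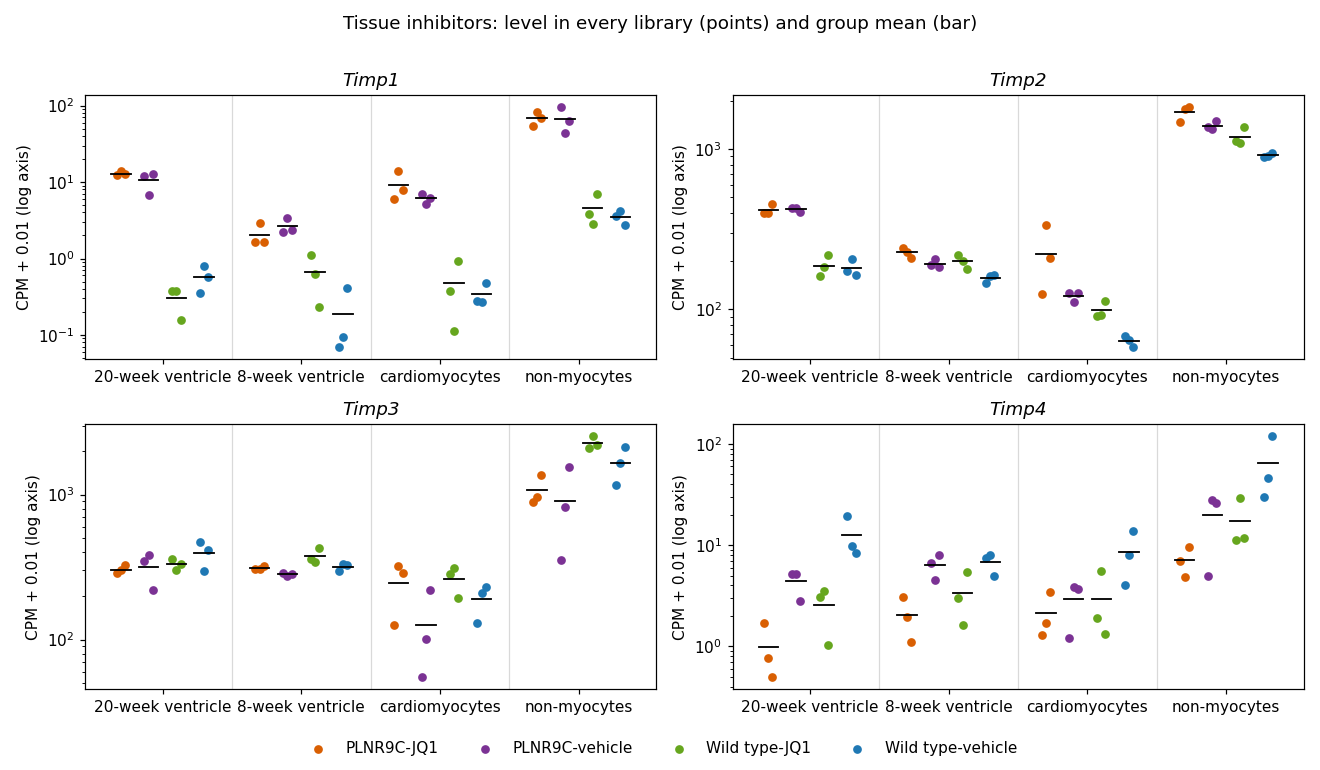
Level of Timp1, Timp2, Timp3 and Timp4 in all 48 libraries (points, CPM + 0.01 on a log axis) with the group mean as a bar, for 4 groups in each of 4 experiments. The PLNR9C points of Timp1 lie above the wild type points of the same treatment in all 4 experiments, while at 20 weeks with vehicle those of Timp3 overlap.

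Of the gelatinases, Mmp2 rose, and Mmp9 passed the test only as a fall in non-myocytes. At 20 weeks Mmp2, gelatinase A, had 242, 226 and 226 CPM in PLNR9C and 78.1, 95.1 and 75.5 CPM in wild type, a log2 fold change of 1.48 ± 0.13 (adjusted p = 5.5e-07). The difference at 8 weeks, 0.32 ± 0.12, did not pass the test (adjusted p = 0.11). Mmp2 also rose in cardiomyocytes, by 1.96 ± 0.37, and in non-myocytes, by 0.69 ± 0.12. In cardiomyocytes its level was 10.9% of that in non-myocytes in PLNR9C and 4.70% in wild type, beside fibroblast marker shares of 10.5% and 4.30%. Mmp9, gelatinase B, fell in non-myocytes, with 2.87, 3.63 and 2.36 CPM in PLNR9C and 8.60, 10.8 and 4.97 CPM in wild type (-1.45 ± 0.35, adjusted p = 0.012), and this was lost without wild type-vehicle replicate 2 (0.055) or PLNR9C-vehicle replicate 3 (0.0504).

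The membrane-type MMPs, which act at the cell surface, moved in both directions. Mmp14, the main activator of Mmp2, rose in all 4 experiments. At 20 weeks it had 35.9, 28.9 and 61.2 CPM in PLNR9C and 12.4, 13.8 and 17.8 CPM in wild type, a log2 fold change of 1.52 ± 0.31 (adjusted p = 0.003), and it rose by 0.91 ± 0.18 at 8 weeks, with rises of 2.36 ± 0.43 for cardiomyocytes and 1.22 ± 0.19 for non-myocytes. Mmp15, another transmembrane member, fell in the ventricle at both ages and in cardiomyocytes. At 20 weeks Mmp15 had 70.7, 77.6 and 79.4 CPM in PLNR9C and 205, 188 and 169 CPM in wild type, a fall of 1.30 ± 0.08 (adjusted p = 4.3e-10). It also fell at 8 weeks, by 0.38 ± 0.07, and in cardiomyocytes, by 1.14 ± 0.16, where it had 65.5, 76.6 and 57.6 CPM in PLNR9C and 167, 156 and 116 CPM in wild type. In non-myocytes its difference of -0.69 ± 0.38 did not pass the test (adjusted p = 0.25). Mmp16 rose at 20 weeks, by 1.18 ± 0.35 (adjusted p = 0.0096), with 1.44, 1.28 and 1.12 CPM in PLNR9C and 0.562, 0.577 and 0.557 CPM in wild type. Mmp24, which is best known from the nervous system, did not pass any test of genotype or JQ1 within an experiment, with 10.8 to 13.3 CPM in PLNR9C and 12 to 13 CPM in wild type at 20 weeks.

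Mmp12, the macrophage elastase, and Mmp3, stromelysin 1, were near 0 in wild type ventricles and rose several-fold in PLNR9C. Both were kept in the ventricle, and Mmp12 also in the cell fractions, only through PLNR9C libraries, so these rises follow in part from the rule that kept them. At 20 weeks Mmp12 had 2.55, 1.88 and 1.70 CPM in PLNR9C and 0.173, 0.133 and 0.0507 CPM in wild type, the wild type values resting on 4, 3 and 1 reads, a log2 fold change of 4.02 ± 0.44 (adjusted p = 8.1e-07). At 8 weeks it had 3.5, 3.28 and 2.27 CPM in PLNR9C and 0.117, 0.168 and 0.199 CPM in wild type, a log2 fold change of 4.17 ± 0.40 (adjusted p = 2.5e-06). Between the ages this difference changed by -0.14 ± 0.84, which did not pass the test. In non-myocytes it had 31.7, 8.27 and 15.4 CPM in PLNR9C and 0.532, 0.423 and 0.686 CPM in wild type (5.05 ± 0.54, adjusted p = 9e-05). In wild type cardiomyocytes with vehicle no read fell on Mmp12. The 64 reads in PLNR9C cardiomyocytes, 53 of them in replicate 1, put it at least 19.2-fold higher against a floor of 3 reads over the wild type group, but the difference did not pass the test (adjusted p = 0.0595).

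Mmp3 at 20 weeks had 2.08, 0.642 and 2.53 CPM in PLNR9C and 0.0433, 0.133 and 0.152 CPM in wild type (3.97 ± 0.63, adjusted p = 6.1e-05). In non-myocytes it had 39.3, 17.1 and 18.9 CPM in PLNR9C and 2.22, 1.27 and 1.37 CPM in wild type (3.95 ± 0.43, adjusted p = 0.0001). At 8 weeks too few reads fell on it for the test, with 11, 14 and 12 reads in PLNR9C and 1, 0 and 3 in wild type. In cardiomyocytes 37 reads in PLNR9C stood against 1 in wild type, a ratio of 33.3 with a counting interval of 5.62 to 1350 (95%, exact).

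Mmp13, collagenase 3 and the only collagenase kept, fell, and it was kept at 20 weeks and in the cell fractions only through wild type libraries, where it is high. At 20 weeks it had 3, 0 and 0 reads in PLNR9C and 19, 32 and 15 reads in wild type, where its level was 0.822, 1.42 and 0.760 CPM. The ratio of summed reads per library size was 0.0411, with a counting interval of 0.00827 to 0.126 (95%, exact), and the adjusted p was 4.9e-05. In non-myocytes Mmp13 had 1.48, 1.91 and 0.567 CPM in PLNR9C and 5.32, 5.16 and 4.80 CPM in wild type (-1.93 ± 0.37, adjusted p = 0.0024). Of the 3 neighbours on chromosome 9, Mmp12 and Mmp3 rose and Mmp13 fell.

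Of the other MMPs, Mmp23, Mmp19 and Mmp28 rose at 20 weeks, while Mmp11, stromelysin 3, differed by -0.02 ± 0.16 and did not pass the test. Mmp23, a membrane-anchored MMP, had 16.3, 14.8 and 15.1 CPM in PLNR9C and 4.59, 4.66 and 2.74 CPM in wild type (1.94 ± 0.20, adjusted p = 6.2e-07). It rose by 2.11 ± 0.36 in cardiomyocytes and by 0.92 ± 0.17 in non-myocytes. Its 8-week rise of 0.72 ± 0.19 had an adjusted p of 0.016, lost without wild type-vehicle replicate 1 (0.088) or PLNR9C-vehicle replicate 2 (0.057). Mmp19 rose by 1.10 ± 0.14 at 20 weeks and by 0.93 ± 0.11 in non-myocytes, and at 8 weeks by 0.57 ± 0.15, a call lost without PLNR9C-vehicle replicate 1 (0.0589) or wild type-vehicle replicate 3 (0.0618). Tmem198b, which overlaps Mmp19, had with vehicle at 20 weeks 13.4 to 16.8 CPM in PLNR9C and 10.6 to 12.3 CPM in wild type. At 8 weeks its ranges overlapped, at 10.3 to 12.5 CPM in PLNR9C and 9.94 to 10.9 CPM in wild type. Mmp28, epilysin, rose by 0.66 ± 0.20 at 20 weeks, a call lost without PLNR9C-vehicle replicate 2 (0.0688) or wild type-vehicle replicate 3 (0.0583).

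The procollagen N-proteinases remove the amino-terminal propeptide from fibrillar procollagens, and their members went in opposite directions. Adamts2 rose in all 4 experiments. It had at 20 weeks 218, 183 and 175 CPM in PLNR9C and 28.3, 37.2 and 34.6 CPM in wild type, a log2 fold change of 2.52 ± 0.12 (adjusted p = 1.3e-10), and at 8 weeks 43.2, 57.1 and 44.7 CPM in PLNR9C and 26.8, 27.1 and 34.5 CPM in wild type, a log2 fold change of 0.71 ± 0.14 (adjusted p = 0.0047). It rose by 1.96 ± 0.38 in cardiomyocytes and by 1.76 ± 0.18 in non-myocytes, where it reached 823, 600 and 857 CPM in PLNR9C. Adamts3, which also activates the lymphatic growth factor VEGF-C, fell at 20 weeks, with 5.56, 6.01 and 2.82 CPM in PLNR9C and 13.3, 11 and 7.55 CPM in wild type (-1.14 ± 0.25, adjusted p = 0.002). Adamts3 was the one member that passed the test in opposite directions in different experiments (below). Adamts14 did not pass the test of genotype in any experiment.

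The hyalectanases cut versican, aggrecan and related proteoglycans. Of the 7 members, Adamts20, Adamts8 and Adamts4 rose and Adamts9 fell at 20 weeks. Adamts20, known in mice for its part in pigment cell development, had 27.6, 30.2 and 40.8 CPM in PLNR9C ventricles at 20 weeks and 0.995, 0.755 and 1.01 CPM in wild type, a log2 fold change of 5.15 ± 0.25 (adjusted p = 1.3e-10). At 8 weeks it had 3.19, 5.92 and 2.71 CPM in PLNR9C and 0.587, 0.713 and 1.14 CPM in wild type, a log2 fold change of 2.26 ± 0.40 (adjusted p = 0.0011). The groups did not overlap at either age. Adamts8 at 20 weeks had 4.42, 3.35 and 3.74 CPM in PLNR9C and 0.736, 0.533 and 1.47 CPM in wild type (2.10 ± 0.36, adjusted p = 0.00012). Adamts4, aggrecanase 1, had 1.74, 1.65 and 5.64 CPM in PLNR9C and 0.216, 1.02 and 0.659 CPM in wild type (2.23 ± 0.57, adjusted p = 0.0059). In non-myocytes Adamts4 rose by 2.06 ± 0.47 (adjusted p = 0.013), which was lost without wild type-vehicle replicate 2 (0.0507). Adamts1 and Adamts5, which stand higher, did not pass the test in any experiment, and their 20-week log2 fold changes were -0.14 ± 0.25 and -0.02 ± 0.10. The fall of Adamts9 at 20 weeks, by 0.38 ± 0.13 (adjusted p = 0.034), was lost without PLNR9C-vehicle replicate 1 (0.119) or 2 (0.126), without wild type-vehicle replicate 3 (0.197) and with only those libraries fitted (0.0716), and the libraries of the groups overlapped.

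Among the other ADAMTS proteases, Adamts7, which cuts cartilage oligomeric matrix protein, had the largest fall among the ADAMTS proteases tested at 20 weeks. It then had 16.5, 15.1 and 15.4 CPM in PLNR9C and 57.3, 57.5 and 50.1 CPM in wild type (-1.81 ± 0.13, adjusted p = 4.2e-09). At 8 weeks its fall of 0.46 ± 0.13 (adjusted p = 0.026) was lost without wild type-vehicle replicate 1 (0.107) or PLNR9C-vehicle replicates 2 (0.087) or 3 (0.054). Adamts10, a partner of fibrillin microfibrils, rose at 20 weeks, with 100, 106 and 89.2 CPM in PLNR9C and 46.5, 47.2 and 46.0 CPM in wild type (1.08 ± 0.07, adjusted p = 2.7e-09). Its difference was 0.08 ± 0.07 at 8 weeks. Adamts12, a relative of Adamts7, rose by 1.23 ± 0.43 at 20 weeks, a call lost without PLNR9C-vehicle replicates 1 (0.0585) or 3 (0.115), without any of the 3 wild type-vehicle libraries (0.117, 0.0511 and 0.0577) and without a filter on low counts (0.0905). It rose by 0.76 ± 0.15 in non-myocytes and by 1.68 ± 0.46 in cardiomyocytes, the second of these lost without PLNR9C-vehicle replicate 3 (0.0546) or wild type-vehicle replicate 3 (0.0638). Adamts6 rose in non-myocytes, by 1.21 ± 0.20, with 15.1, 14.1 and 15.6 CPM in PLNR9C and 4.52, 7.36 and 7.46 CPM in wild type. Adamts17 did not pass any test of genotype or JQ1.

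Of the 5 ADAMTS-like proteins, Adamtsl2, Adamtsl1 and Adamtsl5 rose at 20 weeks and none fell. Adamtsl2, which binds the latent TGF-beta complex and fibrillin, had 285, 286 and 180 CPM in PLNR9C and 30.7, 23.9 and 23.8 CPM in wild type (3.26 ± 0.23, adjusted p = 2e-06). At 8 weeks it had 27.9, 30.1 and 28.2 CPM in PLNR9C and 26.4, 24.8 and 25.7 CPM in wild type, a difference of 0.16 ± 0.25 that did not pass the test. It rose by 2.49 ± 0.44 in cardiomyocytes and by 1.11 ± 0.23 in non-myocytes. Its level in cardiomyocytes was 11.3% of that in non-myocytes in PLNR9C and 4.45% in wild type. Adamtsl1 rose by 1.18 ± 0.22 at 20 weeks. Adamtsl5, a microfibril protein and the second highest member by RPKM in both genotypes, rose by 0.41 ± 0.07 at 20 weeks and by 0.58 ± 0.15 in cardiomyocytes. Adamtsl4 rose at 8 weeks by 0.31 ± 0.08, a call lost without PLNR9C-vehicle replicate 2 (0.0656) or wild type-vehicle replicate 3 (0.0634).

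To ask whether the genotype difference grew with age, the difference at 20 weeks was tested against that at 8 weeks in a fit over both ages. It was higher at 20 weeks for 10 of 39 members and lower for 4, against 15.5% of all genes, 7.03% higher and 8.51% lower. The 8-week and 20-week libraries came as separate tables, and age and table cannot be told apart. Among the increases Adamtsl2 was the largest, with 3.10 ± 0.35 between the ages (adjusted p = 1.2e-05), followed by Adamts20 with 2.90 ± 0.56, Mmp16 with 1.90 ± 0.47 and Adamts2 with 1.82 ± 0.20. Timp2, Mmp2 and Adamts10 also grew further apart, by 0.94 ± 0.14, 1.17 ± 0.20 and 1.00 ± 0.10. The difference of Mmp23 was higher at 20 weeks by 1.22 ± 0.29 and that of Adamtsl1 by 1.17 ± 0.37, the second lost in 7 of the 12 fits that left out 1 library (0.051 to 0.102). The largest change in either direction was that of Mmp13, -3.82 ± 0.99 (adjusted p = 0.0074), which rests on few reads. The others whose difference was lower at 20 weeks were Mmp9, by 1.42 ± 0.39, Adamts7, by 1.34 ± 0.19, and Mmp15, by 0.92 ± 0.10. Mmp9 differed by 0.78 ± 0.28 at 8 weeks and by -0.65 ± 0.26 at 20 weeks, and neither passed the test within its age. Timp1 and Mmp12 were high in PLNR9C at both ages, and the change of their difference with age did not pass the test.

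**Figure D3:**
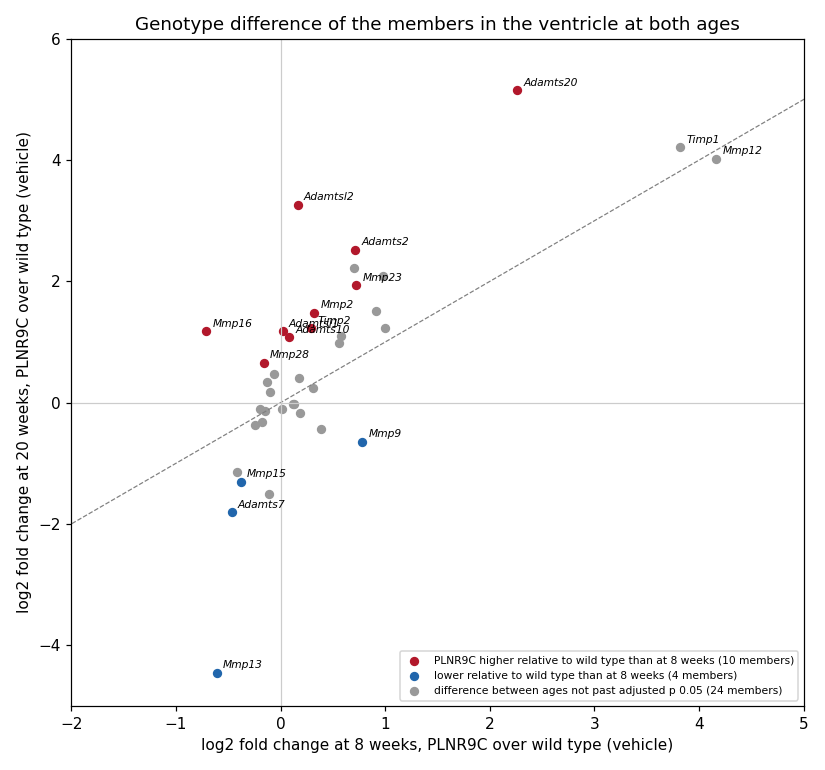
Log2 fold change of PLNR9C over wild type with vehicle at 8 weeks (x axis) and at 20 weeks (y axis) for the 38 members tested at both ages, with the line of equal change dashed. The 10 red members were further up at 20 weeks and the 4 blue ones further down (adjusted p under 0.05), and the other 24 are grey; Timp1 and Mmp12 lie near the dashed line.

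To place the members in the heart's cells, cardiomyocytes and non-myocytes of wild type mice with vehicle were compared. Of 41 members, 6 were higher in cardiomyocytes and 32 were lower, against 79.5% of all genes, 37.3% higher and 42.2% lower, and the median log2 fold change was -2.88 over the members and -0.13 over all genes. The 6 were Adamtsl5, Adamts3, Mmp24, Mmp15, Adamts7 and Adamtsl4. Adamtsl5 had 208, 204 and 248 CPM in cardiomyocytes and 34.0, 40.5 and 37.5 CPM in non-myocytes (2.56 ± 0.17). Adamts3 had 13.0, 12.3 and 18.2 CPM in cardiomyocytes and 3.33, 4.39 and 3.04 CPM in non-myocytes (2.01 ± 0.19). Mmp24 differed by 1.86 ± 0.19, Mmp15 by 1.17 ± 0.29, Adamts7 by 0.99 ± 0.27 and Adamtsl4 by 0.67 ± 0.17. By RPKM, which is not scaled by TMM, Adamtsl4 was lower in cardiomyocytes, at 25.0 against 30.8, so its direction depends on the scaling. Adamts7, at 5.85 and 5.79, and Mmp15, at 33.4 and 29.0, then lay close in the 2 fractions. Adamtsl5, at 54.4 and 18.1, Adamts3, at 1.36 and 0.660, and Mmp24, at 3.19 and 1.72, stayed higher in cardiomyocytes. Of the members lower in cardiomyocytes, Mmp2 had 22.9, 23.2 and 17.4 CPM in cardiomyocytes and 470, 439 and 441 CPM in non-myocytes (-4.41 ± 0.31), and Adamtsl2, Mmp9 and Adamts5 differed by -4.49 ± 0.41, -4.61 ± 0.64 and -4.08 ± 0.23. Mmp13 and Mmp3, with few reads in cardiomyocytes, differed by -5.40 ± 0.70 and -4.59 ± 1.24. Within cardiomyocytes 36 members were tested, and Mmp9, Mmp13, Mmp16, Mmp25 and Mmp27 had too few reads there. These were kept through non-myocyte libraries, so a lower level in cardiomyocytes follows in part from the rule that kept them. All 4 inhibitors were lower in cardiomyocytes, Timp2 by 3.01 ± 0.23 and Timp4 by 2.09 ± 0.64, a call lost for Timp4 without wild type-vehicle non-myocyte replicate 3 (0.0614).

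The genotype difference itself differed between the fractions for 5 of 41 members, being higher in cardiomyocytes for Adamts20 and Adamts8 and lower for Adamts3, Adamts7 and Adamts6, against 8.33% of all genes, 4.09% higher and 4.24% lower. The count of 5 was 3 without wild type-vehicle cardiomyocyte replicate 1. In cardiomyocytes Adamts20 had 16.6, 14.6 and 29.3 CPM in PLNR9C and 0.266, 0.860 and 0.567 CPM in wild type, the last 3 values resting on 3, 10 and 6 reads, a log2 fold change of 5.12 ± 0.41 (adjusted p = 7.6e-06). In non-myocytes it had 2.79, 2.00 and 2.17 CPM in PLNR9C and 1.42, 1.95 and 1.29 CPM in wild type, a difference of 0.58 ± 0.31 that did not pass the test (adjusted p = 0.22). The difference between the fractions was 4.50 ± 0.54 (adjusted p = 2.1e-05). Adamts20 in PLNR9C cardiomyocytes was at 1499% of its level in PLNR9C non-myocytes, and in wild type at 64.9%. The summed levels of the 6 non-myocyte marker lists stood between 10.5% and 62.4% in PLNR9C and between 4.16% and 52.2% in wild type. Sums do not show how single markers moved, and the part of other cells in the Adamts20 difference was not tested.

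Adamts3 took opposite directions in the 2 fractions. In cardiomyocytes it had 3.31, 3.59 and 2.69 CPM in PLNR9C and 9.65, 9.11 and 13.4 CPM in wild type (-1.74 ± 0.20, adjusted p = 6.9e-05). In non-myocytes it had 9.4, 9 and 11 CPM in PLNR9C and 4.43, 5.75 and 4.03 CPM in wild type (1.04 ± 0.20, adjusted p = 0.0029). The difference between the fractions was -2.83 ± 0.27 (adjusted p = 1.5e-06). Adamts7 fell in cardiomyocytes, with 7.55, 13.4 and 5.04 CPM in PLNR9C and 25.9, 23.6 and 49.5 CPM in wild type (-1.91 ± 0.37, adjusted p = 0.003), while in non-myocytes its difference was 0.07 ± 0.12. The difference between the fractions was -2.03 ± 0.39 (adjusted p = 0.0022). Adamts8 in cardiomyocytes had 3.99, 2.44 and 5.56 CPM in PLNR9C and 0.531, 1.12 and 0.473 CPM in wild type (2.46 ± 0.49, adjusted p = 0.0027), and in non-myocytes its difference was 0.09 ± 0.31. Adamts6 differed between the fractions by -1.21 ± 0.32 (adjusted p = 0.021), lost without wild type-vehicle replicate 1 of the cardiomyocytes (0.0983) or of the non-myocytes (0.0568). The Adamts8 difference between the fractions, 2.32 ± 0.60 (adjusted p = 0.019), was lost without PLNR9C-vehicle cardiomyocyte replicate 3 (0.061) or wild type-vehicle cardiomyocyte replicates 1 (0.060) or 3 (0.065).

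**Figure D4:**
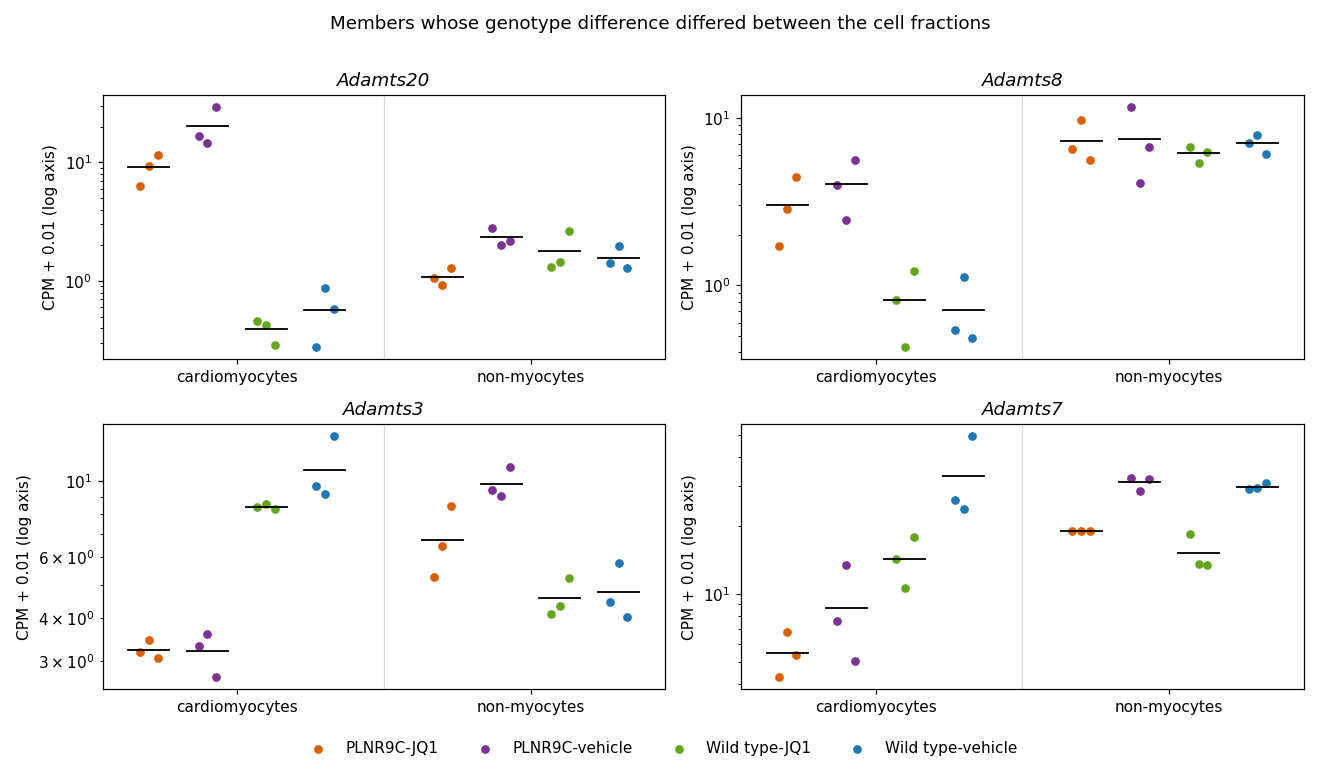
Level of Adamts20, Adamts8, Adamts3 and Adamts7 in each cardiomyocyte and non-myocyte library (points, CPM + 0.01 on a log axis) with the group mean as a bar, for the 4 groups. In cardiomyocytes with vehicle, PLNR9C points of Adamts20 (14.6 to 29.3 CPM) and Adamts8 lie above wild type and those of Adamts3 and Adamts7 below; in non-myocytes with vehicle the PLNR9C points of Adamts3 lie above wild type.

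To determine how BET inhibition touched these genes, JQ1 was compared with vehicle within each genotype. In PLNR9C ventricles at 20 weeks 3 of 39 members rose and 12 fell, against 31.9% of all genes passing the test, 15.9% higher and 16.1% lower. At 8 weeks 4 of 38 rose and 12 fell, against 33.1%, 15.5% higher and 17.7% lower. In PLNR9C non-myocytes 2 of 41 rose and 10 fell, against 36.2%, 16.7% higher and 19.5% lower, and this count of 12 was 7 without PLNR9C-JQ1 replicate 2. In PLNR9C cardiomyocytes 3 of 36 rose and 4 fell, against 10.5%, 6.14% higher and 4.33% lower, and this count of 7 was 2 without PLNR9C-JQ1 replicate 2, 17 without PLNR9C-JQ1 replicate 1, 3 without PLNR9C-vehicle replicate 2, 4 without PLNR9C-vehicle replicate 3 and 0 with only those 6 libraries fitted. In wild type ventricles 2 rose and 11 fell at 20 weeks, against 27.2% of all genes, 12.3% higher and 14.9% lower, and 7 rose and 9 fell at 8 weeks, against 29.8%, 14.3% higher and 15.4% lower. In wild type non-myocytes 4 rose and 4 fell, against 38.0%, 18.0% higher and 20.0% lower, and in wild type cardiomyocytes 1 rose and 2 fell, against 3.63%, 1.70% higher and 1.93% lower. This last count of 3 was 0 without wild type-JQ1 replicate 3, 1 without wild type-JQ1 replicates 1 or 2 or wild type-vehicle replicates 1 or 3, 5 by DESeq2 and 7 with only those libraries fitted. The comparisons in PLNR9C and in wild type share no libraries. The members that passed in all 4 experiments in PLNR9C were Mmp17 and Adamts9, higher with JQ1, and Adamts20, Adamts6 and Adamtsl5, lower with JQ1, and in wild type they were Mmp17, higher, and Adamts6, lower. The cardiomyocyte call of Adamtsl5 (-0.56 ± 0.15, adjusted p = 0.029) was lost without PLNR9C-JQ1 replicate 2 (0.0919) and without any of the PLNR9C-vehicle replicates (0.0625, 0.0659 and 0.0666), and those of the other 4 in PLNR9C are given with their genes.

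**Figure D5:**
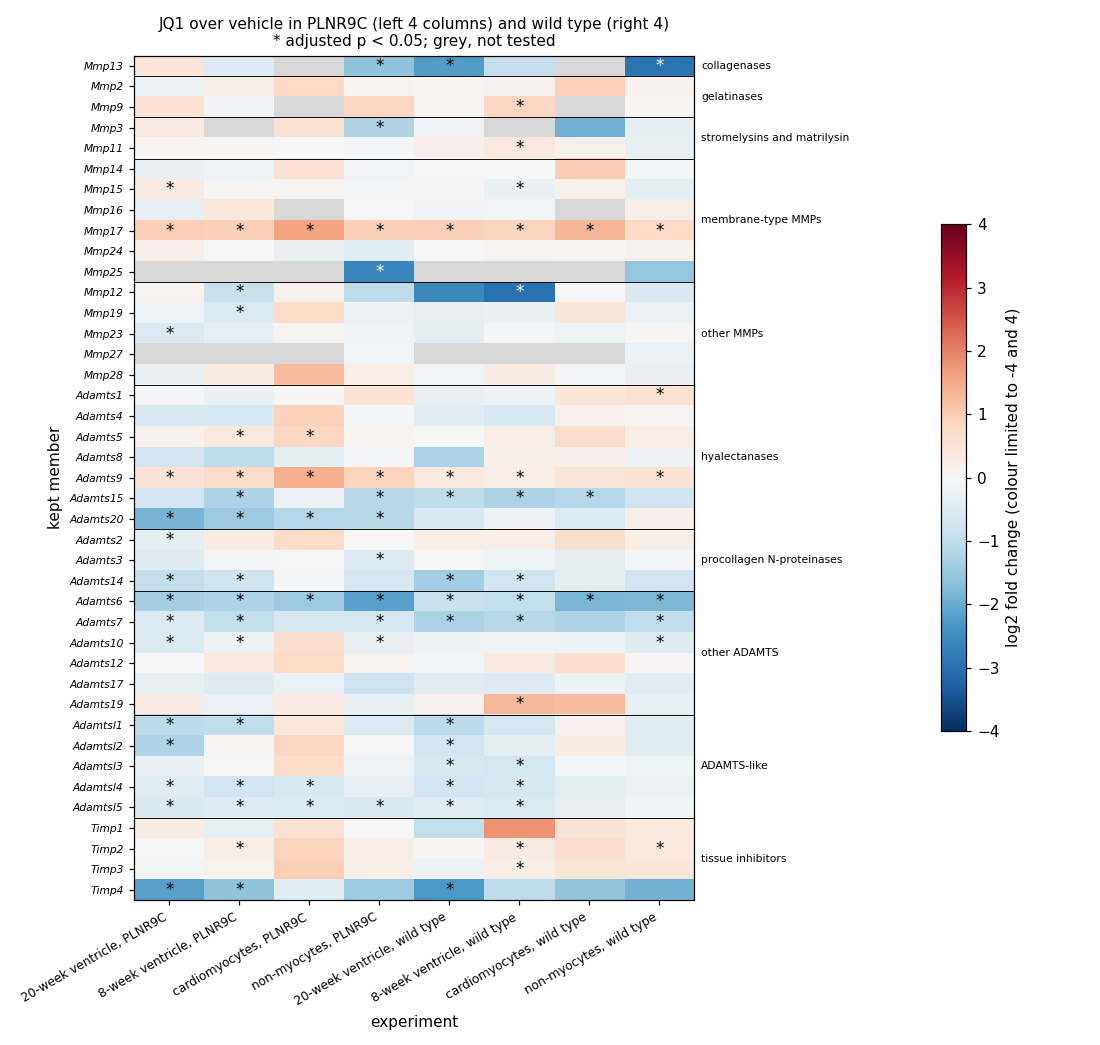
Log2 fold change of JQ1 over vehicle for each kept member (rows, grouped by role), in PLNR9C (left 4 columns) and in wild type (right 4 columns), each for the 20-week ventricle, the 8-week ventricle, cardiomyocytes and non-myocytes. Asterisks mark an adjusted p under 0.05 and grey marks members not tested; Mmp17 is red and Adamts6 blue, with an asterisk, in all 8 columns.

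Mmp17, a membrane-type MMP held by a lipid anchor, rose with JQ1 in both genotypes. At 20 weeks it had 10.7, 9.83 and 10.8 CPM in PLNR9C with JQ1 and 5.26, 4.36 and 6.12 CPM with vehicle (0.99 ± 0.15, adjusted p = 0.00013). In wild type at 20 weeks it had 10.7, 8.42 and 7.90 CPM with JQ1 and 5.19, 4.13 and 4.61 CPM with vehicle (0.95 ± 0.16, adjusted p = 0.00031). The JQ1 and vehicle libraries did not overlap in either genotype, nor did they at 8 weeks, where the rises were 0.96 ± 0.15 in PLNR9C and 0.91 ± 0.15 in wild type. In non-myocytes Mmp17 rose by 0.95 ± 0.15 in PLNR9C and by 0.79 ± 0.14 in wild type. In cardiomyocytes it rose by 1.56 ± 0.29 in PLNR9C (adjusted p = 0.0074), a call lost when only those 6 libraries were fitted (0.063), and by 1.31 ± 0.31 in wild type (0.037), a call lost without any 1 of the 6 libraries (0.060 to 0.142). Genotype alone did not move Mmp17 past the test in any experiment.

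Adamts6, which mouse mutants tie to heart development, fell with JQ1 in every experiment. In PLNR9C non-myocytes it had 3.15, 2.83 and 3.95 CPM with JQ1 and 15.1, 14.1 and 15.6 CPM with vehicle (-2.17 ± 0.21, adjusted p = 8.9e-06). In wild type non-myocytes it had 1.40, 2.17 and 1.96 CPM with JQ1 and 4.52, 7.36 and 7.46 CPM with vehicle (-1.80 ± 0.24, adjusted p = 9.5e-05). PLNR9C non-myocytes with JQ1 lay below wild type with vehicle, by 0.96 ± 0.22 (adjusted p = 0.00365). In the ventricle its falls were 1.31 ± 0.29 at 20 weeks and 1.22 ± 0.20 at 8 weeks in PLNR9C, and 0.89 ± 0.31 (adjusted p = 0.043) and 0.94 ± 0.19 in wild type. The 20-week wild type call was lost without wild type-JQ1 replicates 1 (0.141) or 2 (0.104) or wild type-vehicle replicate 2 (0.202) and with only those libraries fitted (0.134). In cardiomyocytes they were 1.44 ± 0.30 in PLNR9C (adjusted p = 0.012, and 0.070 with only those libraries fitted) and 1.83 ± 0.32 in wild type (adjusted p = 0.011, and 0.052 without wild type-JQ1 replicate 3).

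Adamts20, far above wild type in PLNR9C hearts, was brought down by JQ1 but not to the wild type level at 20 weeks. At 20 weeks it had 6.85, 11.8 and 8.40 CPM in PLNR9C with JQ1 and 27.6, 30.2 and 40.8 CPM in PLNR9C with vehicle (-1.86 ± 0.18, adjusted p = 2.8e-06). Against wild type with vehicle, PLNR9C with JQ1 was still higher by 3.29 ± 0.25 (adjusted p = 3.5e-08). At 8 weeks it had 1.96, 1.58 and 0.690 CPM in PLNR9C with JQ1 and 3.19, 5.92 and 2.71 CPM with vehicle (-1.45 ± 0.36, adjusted p = 0.0057), and the difference of PLNR9C with JQ1 from wild type with vehicle, 0.81 ± 0.43, did not pass the test (adjusted p = 0.16). In PLNR9C cardiomyocytes it had 6.26, 9.26 and 11.6 CPM with JQ1 and 16.6, 14.6 and 29.3 CPM with vehicle (-1.15 ± 0.29, adjusted p = 0.027), a call lost without PLNR9C-JQ1 replicate 2 (0.076) or PLNR9C-vehicle replicate 3 (0.089) and with only those libraries fitted (0.110). In PLNR9C non-myocytes the fall was 1.10 ± 0.33 (adjusted p = 0.019), lost without PLNR9C-JQ1 replicates 1 (0.051) or 2 (0.071) or PLNR9C-vehicle replicate 1 (0.071).

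Among the other hyalectanases, Adamts9 rose, Adamts15 fell, and Adamts5 and Adamts1 rose in some experiments with JQ1. Adamts9 had 47.3, 56.9 and 51.0 CPM in PLNR9C ventricles at 20 weeks with JQ1 and 32.8, 31.4 and 41.9 CPM with vehicle (0.55 ± 0.13, adjusted p = 0.0057), and its rises in PLNR9C were 0.72 ± 0.08 at 8 weeks and 0.90 ± 0.19 in non-myocytes. Its rise of 1.43 ± 0.34 in PLNR9C cardiomyocytes (adjusted p = 0.025) was lost without PLNR9C-JQ1 replicate 2 (0.102) or PLNR9C-vehicle replicates 1 (0.078) or 2 (0.065), without a filter on low counts (0.0657) and with only those libraries fitted (0.0774). Adamts15 at 8 weeks had 6.10, 6.28 and 4.71 CPM in PLNR9C with JQ1 and 14.3, 11.5 and 15 CPM with vehicle (-1.24 ± 0.15, adjusted p = 3.7e-06). In wild type at 8 weeks it had 4.30, 5.29 and 5.29 CPM with JQ1 and 10.9, 11.1 and 13.9 CPM with vehicle (-1.26 ± 0.15, adjusted p = 4.7e-06). The falls in the 2 genotypes differed by 0.02 ± 0.21. The calls of its other falls were lost in several of the fits that left out 1 library. That of 1.10 ± 0.31 in PLNR9C non-myocytes was lost without PLNR9C-JQ1 replicates 1 (0.0648) or 2 (0.0524) and with only those libraries fitted (0.0642), that of 1.03 ± 0.33 in wild type at 20 weeks without wild type-JQ1 replicates 2 (0.135) or 3 (0.124) or wild type-vehicle replicates 2 (0.0636) or 3 (0.123), without a filter on low counts (0.0951) and with only those libraries fitted (0.0862), and that of 1.14 ± 0.27 in wild type cardiomyocytes without any of the wild type-JQ1 replicates (0.0883, 0.103 and 0.125) or wild type-vehicle replicates 1 (0.104) or 3 (0.137).

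Adamts5, aggrecanase 2, had 58.5, 58.1 and 50.8 CPM in PLNR9C ventricles at 8 weeks with JQ1 and 38.4, 49.5 and 40.9 CPM with vehicle (0.38 ± 0.10, adjusted p = 0.0081), and the groups did not overlap. In PLNR9C cardiomyocytes it had 15.3, 30 and 19.4 CPM with JQ1 and 14.2, 11.4 and 10.9 CPM with vehicle (0.83 ± 0.21, adjusted p = 0.027), a call lost without PLNR9C-JQ1 replicate 2 (0.095) or PLNR9C-vehicle replicates 2 (0.0911) or 3 (0.068) and with only those libraries fitted (0.124). Adamts1 rose in wild type non-myocytes by 0.57 ± 0.20 (adjusted p = 0.039), a call lost without any of the wild type-JQ1 replicates (0.117, 0.0524 and 0.0759) or wild type-vehicle replicates 1 (0.123) or 3 (0.124) and without a filter on low counts (0.0585). Adamts9 rose in wild type by 0.38 ± 0.13 at 20 weeks, by 0.25 ± 0.08 at 8 weeks and by 0.56 ± 0.18 in non-myocytes, and the groups overlapped at 20 weeks and in non-myocytes. The 20-week call was lost without any of the wild type-JQ1 replicates (0.138, 0.0618 and 0.075) or wild type-vehicle replicates 1 (0.158) or 2 (0.149) and without a filter on low counts (0.0636). The 8-week call was lost without wild type-JQ1 replicates 2 (0.155) or 3 (0.0555) or wild type-vehicle replicates 1 (0.0823) or 3 (0.0559), and the non-myocyte call without wild type-JQ1 replicates 1 (0.104) or 2 (0.106) or wild type-vehicle replicates 2 (0.0783) or 3 (0.105).

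Of the procollagen N-proteinases, Adamts14 fell with JQ1 at 20 weeks, with 1.75, 1.53 and 2.37 CPM in PLNR9C with JQ1 and 3.89, 3.21 and 3.84 CPM with vehicle (-0.96 ± 0.24, adjusted p = 0.0054), and by 1.40 ± 0.24 in wild type. At 8 weeks its falls were 0.80 ± 0.27 in PLNR9C, lost without PLNR9C-JQ1 replicates 1 (0.0846) or 3 (0.122) or PLNR9C-vehicle replicates 1 (0.0739) or 2 (0.0871), and 0.78 ± 0.29 in wild type, lost without wild type-JQ1 replicates 2 (0.210) or 3 (0.0781) or any of the wild type-vehicle replicates (0.0614, 0.0757 and 0.169). Adamts3 fell in PLNR9C non-myocytes by 0.55 ± 0.20 (adjusted p = 0.045), a call lost without PLNR9C-JQ1 replicates 1 (0.161) or 2 (0.113) or any of the PLNR9C-vehicle replicates (0.0683, 0.0588 and 0.129), without a filter on low counts (0.0565) and with only those libraries fitted (0.060). Adamts2 had 142, 150 and 161 CPM in PLNR9C ventricles at 20 weeks with JQ1 and 218, 183 and 175 CPM with vehicle, a fall of 0.35 ± 0.11 (adjusted p = 0.023) that was lost without PLNR9C-JQ1 replicates 1 (0.089) or 2 (0.064) or PLNR9C-vehicle replicate 1 (0.124). It remained above wild type with vehicle by 2.18 ± 0.12.

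Adamts7, already low in PLNR9C ventricles, was lowered further by JQ1, and at 20 weeks it had 12.6, 10.3 and 9.45 CPM in PLNR9C with JQ1 and 16.5, 15.1 and 15.4 CPM with vehicle (-0.54 ± 0.13, adjusted p = 0.0046). In wild type at 20 weeks it had 22.4, 27.3 and 18.6 CPM with JQ1 and 57.3, 57.5 and 50.1 CPM with vehicle (-1.27 ± 0.12, adjusted p = 1.7e-06). The wild type libraries with JQ1 lay between PLNR9C and wild type libraries with vehicle. At 8 weeks the falls with JQ1 were 0.96 ± 0.13 in PLNR9C and 1.10 ± 0.13 in wild type, and in non-myocytes 0.71 ± 0.12 and 0.98 ± 0.12.

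Adamts10 fell with JQ1 in PLNR9C ventricles at 20 weeks by 0.53 ± 0.07 (adjusted p = 4.1e-05). In PLNR9C non-myocytes it had 186, 196 and 205 CPM with JQ1 and 246, 265 and 225 CPM with vehicle (-0.32 ± 0.08, adjusted p = 0.0078), and in wild type non-myocytes 188, 179 and 182 CPM with JQ1 and 250, 253 and 262 CPM with vehicle (-0.48 ± 0.08, adjusted p = 0.00057). The groups did not overlap in either genotype. Its fall of 0.20 ± 0.07 in PLNR9C at 8 weeks (adjusted p = 0.042) was lost by DESeq2 (0.0612), with RLE scaling (0.0505), without a filter on low counts (0.0575) and without PLNR9C-JQ1 replicates 1 (0.056), 2 (0.109) or 3 (0.0898) or PLNR9C-vehicle replicates 1 (0.162) or 3 (0.0582). Adamts19, which mouse mutants tie to heart valves, rose with JQ1 in wild type at 8 weeks, with 2.98, 3.91 and 2.67 CPM with JQ1 and 0.822, 1.76 and 1.19 CPM with vehicle (1.30 ± 0.28, adjusted p = 0.0019). In PLNR9C at 8 weeks its difference was -0.24 ± 0.29, and the interaction did not pass the test (adjusted p = 0.83).

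The ADAMTS-like proteins fell with JQ1 in the ventricle: at 20 weeks 4 of 5 in PLNR9C and 5 of 5 in wild type, and at 8 weeks 3 of 5 in each genotype, against 16.1%, 14.9%, 17.7% and 15.4% of all genes lower in that order. Adamtsl2 had 84.9, 117 and 128 CPM in PLNR9C with JQ1 at 20 weeks and 285, 286 and 180 CPM with vehicle (-1.19 ± 0.21, adjusted p = 0.0024), and 14.9, 13.3 and 18.1 CPM in wild type with JQ1 against 30.7, 23.9 and 23.8 CPM with vehicle (-0.76 ± 0.24, adjusted p = 0.041). This wild type call was lost without wild type-JQ1 replicates 1 (0.118) or 2 (0.127), without any of the 3 wild type-vehicle libraries (0.121, 0.0674 and 0.0663) and without a filter on low counts (0.0765). PLNR9C with JQ1 stayed above wild type with vehicle by 2.07 ± 0.23. In neither cell fraction did Adamtsl2 pass the test of JQ1. Adamtsl5 fell in PLNR9C by 0.57 ± 0.07 at 20 weeks, by 0.51 ± 0.08 at 8 weeks and by 0.59 ± 0.16 in non-myocytes, Adamtsl4 by 0.45 ± 0.10 at 20 weeks and 0.77 ± 0.08 at 8 weeks, and Adamtsl1 by 1.05 ± 0.21 at 20 weeks. The fall of Adamtsl1 at 8 weeks in PLNR9C, by 0.99 ± 0.30, was lost without PLNR9C-JQ1 replicates 2 (0.0832) or 3 (0.0744) or PLNR9C-vehicle replicate 2 (0.0795). That of Adamtsl4 in PLNR9C cardiomyocytes, by 0.61 ± 0.16, was lost without PLNR9C-JQ1 replicates 2 (0.0836) or 3 (0.0538) or PLNR9C-vehicle replicates 2 (0.0747) or 3 (0.083) and with only those libraries fitted (0.0846). The falls in wild type at 20 weeks were 0.43 ± 0.08 for Adamtsl5, 0.77 ± 0.10 for Adamtsl4, 1.05 ± 0.25 for Adamtsl1 and 0.62 ± 0.16 for Adamtsl3. At 8 weeks Adamtsl3 fell in wild type by 0.69 ± 0.15 and Adamtsl4 by 0.65 ± 0.08.

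Of the other MMPs, Mmp15 rose at 20 weeks with JQ1, and Mmp12, Mmp3, Mmp13, Mmp23 and Mmp25 each fell in PLNR9C in 1 experiment. Mmp15 had 94.7, 95.4 and 93.0 CPM in PLNR9C with JQ1 and 70.7, 77.6 and 79.4 CPM with vehicle (0.31 ± 0.08, adjusted p = 0.0045), and remained below wild type with vehicle by 0.99 ± 0.08. In wild type at 8 weeks Mmp15 instead fell, by 0.26 ± 0.07 (adjusted p = 0.0089, and 0.0574 without wild type-vehicle replicate 1). Cardiomyocyte markers also rose with JQ1 in PLNR9C ventricles at 20 weeks, 8 of 9 of them, and their sum was 37867 to 44324 CPM with JQ1 and 25399 to 31524 CPM with vehicle. Mmp19 fell in PLNR9C at 8 weeks by 0.56 ± 0.15. Tmem198b, which overlaps Mmp19, had in those libraries 7.76 to 9.92 CPM with JQ1 and 10.3 to 12.5 CPM with vehicle. Mmp14 and Mmp2 did not pass the test of JQ1 in any experiment in either genotype, and at 20 weeks PLNR9C with JQ1 stayed above wild type with vehicle by 1.27 ± 0.31 for Mmp14 and by 1.28 ± 0.13 for Mmp2. In wild type, Mmp13 fell at 20 weeks, with 2, 6 and 5 reads with JQ1 and 19, 32 and 15 reads with vehicle (-2.24 ± 0.55, adjusted p = 0.0056), and in non-myocytes, with 1.10, 0.207 and 0.653 CPM with JQ1 and 5.32, 5.16 and 4.80 CPM with vehicle (-2.93 ± 0.42, adjusted p = 0.00014). Its wild type JQ1 libraries at 20 weeks stayed below 10 reads, so that fall follows in part from the rule that kept it. In the cell fractions it was also kept only through wild type libraries, and those with vehicle were the higher, so the non-myocyte fall has the same limit.

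Mmp12 had 1.32, 2.08 and 1.44 CPM in PLNR9C ventricles at 8 weeks with JQ1 and 3.5, 3.28 and 2.27 CPM with vehicle (-0.89 ± 0.28, adjusted p = 0.019), a call lost without PLNR9C-JQ1 replicates 1 (0.075) or 3 (0.0637) or PLNR9C-vehicle replicates 1 (0.0898) or 2 (0.0644). In wild type at 8 weeks Mmp12 also fell with JQ1 (-2.98 ± 0.99, adjusted p = 0.028), on a group total of 1 read with JQ1 and 10 reads with vehicle. Mmp3 had 7.79, 13.3 and 11.5 CPM in PLNR9C non-myocytes with JQ1 and 39.3, 17.1 and 18.9 CPM with vehicle (-1.21 ± 0.35, adjusted p = 0.017), a call lost without PLNR9C-JQ1 replicate 1 (0.0618) or PLNR9C-vehicle replicate 1 (0.0688). In the same cells Mmp13 had 5, 4 and 4 reads with JQ1 and 17, 21 and 6 reads with vehicle (-1.62 ± 0.52, adjusted p = 0.027), a call lost without any of the PLNR9C-JQ1 replicates (0.0618, 0.0725 and 0.0634) or PLNR9C-vehicle replicates 1 (0.0674) or 2 (0.112). The JQ1 libraries lay below the vehicle libraries for all 3 of these members.

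Mmp25, a leukocyte membrane-type MMP kept only through PLNR9C libraries, had 5, 0 and 1 reads in PLNR9C non-myocytes with JQ1 and 10, 14 and 17 reads with vehicle (adjusted p = 0.016), a call lost without PLNR9C-JQ1 replicates 2 (0.0593) or 3 (0.0553). Its JQ1 libraries there stayed below 10 reads, so this fall follows in part from the rule that kept it. Mmp23 had 10.2, 11.1 and 10.6 CPM in PLNR9C ventricles at 20 weeks with JQ1 and 16.3, 14.8 and 15.1 CPM with vehicle (-0.54 ± 0.18, adjusted p = 0.034). The groups did not overlap, but the call was lost without any 1 of the 6 libraries (0.0636 to 0.110) and with the number of digits in the animal number as a covariate (0.0516). In wild type at 8 weeks Mmp9 rose by 0.83 ± 0.28 and Mmp11 by 0.40 ± 0.14. The Mmp9 call was lost without wild type-JQ1 replicate 1 (0.179) or wild type-vehicle replicates 1 (0.113) or 2 (0.0616) and with only those libraries fitted (0.0514), and the Mmp11 call without wild type-JQ1 replicates 1 (0.189) or 2 (0.0868) or wild type-vehicle replicates 2 (0.121) or 3 (0.120).

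The inhibitors answered JQ1 unevenly. Timp1 did not pass the test of JQ1 in either genotype, and its 20-week libraries in PLNR9C had 12.2, 13.8 and 12.7 CPM with JQ1 and 12, 6.79 and 12.9 CPM with vehicle (0.28 ± 0.20, adjusted p = 0.31). Against wild type with vehicle, Timp1 in PLNR9C with JQ1 was higher by 4.50 ± 0.29 at 20 weeks and 3.48 ± 0.56 at 8 weeks, while the fractions gave 4.76 ± 0.50 for cardiomyocytes and 4.28 ± 0.37 for non-myocytes. Timp4 fell at 20 weeks in both genotypes and at 8 weeks in PLNR9C. At 20 weeks it had in PLNR9C 1.68, 0.764 and 0.490 CPM with JQ1 and 5.19, 5.14 and 2.82 CPM with vehicle (-2.16 ± 0.58, adjusted p = 0.019), a call lost without PLNR9C-JQ1 replicates 2 (0.069) or 3 (0.062) or PLNR9C-vehicle replicates 1 (0.058) or 2 (0.054). In wild type it had 3.05, 3.53 and 1.02 CPM with JQ1 and 19.4, 9.82 and 8.41 CPM with vehicle (-2.31 ± 0.51, adjusted p = 0.0085). PLNR9C with JQ1 had the lowest mean of the 4 groups, 3.67 ± 0.56 below wild type with vehicle, although its libraries overlapped those of wild type with JQ1. At 8 weeks Timp4 had 3.10, 1.94 and 1.09 CPM in PLNR9C with JQ1 and 6.65, 4.53 and 7.90 CPM with vehicle (-1.61 ± 0.46, adjusted p = 0.023), a call lost without PLNR9C-JQ1 replicates 2 (0.0737) or 3 (0.0629) or PLNR9C-vehicle replicates 1 (0.0592) or 3 (0.0634). Syn2, the gene around Timp4, had in PLNR9C at 20 weeks 9.75 to 13.0 CPM with JQ1 and 14.6 to 16.0 CPM with vehicle. At 8 weeks in PLNR9C Syn2 had 3.68 to 7.65 CPM with JQ1 and 6.25 to 12.8 CPM with vehicle. In wild type at 20 weeks its ranges overlapped, at 3.94 to 8.53 CPM with JQ1 and 5.46 to 9.32 CPM with vehicle. Reads shared by Timp4 and Syn2 cannot be told apart.

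Timp2 rose with JQ1 at 8 weeks in both genotypes and in wild type non-myocytes. At 8 weeks it had 243, 229 and 210 CPM in PLNR9C with JQ1 and 188, 207 and 184 CPM with vehicle (0.24 ± 0.08, adjusted p = 0.024), a call lost without PLNR9C-JQ1 replicates 1 (0.114) or 2 (0.0601) or PLNR9C-vehicle replicates 1 (0.0772) or 3 (0.0902). In wild type its rise was 0.34 ± 0.08 at 8 weeks and 0.39 ± 0.13 in non-myocytes, and the non-myocyte call was lost without wild type-JQ1 replicate 3 (0.102) or wild type-vehicle replicates 1 (0.0711) or 2 (0.0663). Timp3 rose in wild type at 8 weeks by 0.24 ± 0.07, a call lost without wild type-JQ1 replicate 3 (0.119) or wild type-vehicle replicate 1 (0.0911). Syn3, the gene around it, had in those libraries 152 to 178 CPM with JQ1 and 130 to 145 CPM with vehicle.

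To test whether JQ1 acted differently in the 2 genotypes, the interaction was fitted. In the edgeR fit no member passed an adjusted p of 0.05 in any of the 4 experiments. An unadjusted p under 0.05 was reached by 9 of 39 members at 20 weeks, 6 of 38 at 8 weeks, 3 of 36 in cardiomyocytes and 2 of 41 in non-myocytes, against 10.3%, 5.62%, 6.75% and 9.06% of all genes. The lowest adjusted p was that of Adamts7 at 20 weeks, 0.098, for an interaction of 0.73 ± 0.18, the fall with JQ1 being smaller in PLNR9C. This interaction passed the test by DESeq2 (0.030) and without a filter on low counts (0.021), and DESeq2 called no other member in any experiment. Of all genes, 0.357% passed at 20 weeks, 0.00645% at 8 weeks and 0.00% in either fraction.

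PLNR9C with JQ1 was also set against wild type with vehicle. At 20 weeks 18 of 39 members were higher and 8 lower, against 49.7% of all genes, 25.0% higher and 24.7% lower. At 8 weeks 10 of 38 were higher and 11 lower, against 35.7%, 17.6% higher and 18.1% lower. In cardiomyocytes 20 of 36 were higher and 5 lower, against 37.1%, 19.6% higher and 17.5% lower, and in non-myocytes 13 of 41 were higher and 7 lower, against 42.2%, 20.3% higher and 21.9% lower. This comparison shares its wild type libraries with the genotype comparison. The cardiomyocyte count of 25 was 19 without PLNR9C-JQ1 replicate 2, the library with the highest fibroblast marker sum.

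Genes around the members in the same pathway were read in the ventricle at 20 weeks with vehicle, where 44.7% of all genes passed the test, 23.3% higher and 21.4% lower in PLNR9C. Of 13 tested substrates of ADAMTS and MMP enzymes, 11 rose in PLNR9C and none fell, with a median log2 fold change of 1.87. Comp, a substrate of Adamts7, rose by 5.08 ± 0.51, Fn1, fibronectin, by 1.87 ± 0.15, and Col1a2, a chain of type I collagen, by 2.35 ± 0.11. Of 12 other matrix-cleaving proteases and their enhancers, 9 rose and 2 fell, among them Pcolce, which speeds removal of the other procollagen propeptide, by 1.71 ± 0.08, and Ctsk, cathepsin K, by 2.19 ± 0.17. Of 15 other activators and inhibitors of metalloproteases, 5 rose and 2 fell, a share near that of all genes: Reck, a membrane inhibitor of MMPs, rose by 0.79 ± 0.17, Lrp1, a receptor that clears MMPs and TIMPs, by 1.05 ± 0.13, and Bsg, a cell surface inducer of MMPs, fell by 0.58 ± 0.09. Of 10 genes of the ADAM family, 5 rose and none fell, against 23.3% of all genes higher and 21.4% lower. The share called in either direction was also near that of all genes, but every call was a rise. Adam9 rose by 1.28 ± 0.08 and Adam8, a leukocyte ADAM, by 2.25 ± 0.20. With JQ1 in PLNR9C at 20 weeks, 4 of the 13 substrates fell and none rose, against 15.9% of all genes higher and 16.1% lower, and Comp fell by 2.45 on the log2 scale.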

How the data were processed

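RNA-seq libraries from mouse left ventricle and from pooled heart cells were read from 3 tables, 1 for each ventricle age and 1 for both cell fractions. The read counts per gene are those deposited by the authors. The authors also deposited a normalized column per library, which behaves as RPKM (reads scaled to gene length and library size). The headers call it only normalized, so this unit is read from the values. It served only to order genes by level and to set wild type levels of the cell fractions beside those in CPM. STAR 2.4.1b is named per the submitters' processing notes; the counting tool and strand setting were not stated there.

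Each experiment of 12 libraries was fitted on its own from the counts with edgeR 4.0.16 in R 4.3.3 (filterByExpr, TMM scaling, robust quasi-likelihood test), with Benjamini-Hochberg adjustment over all genes tested and a threshold of 0.05. Differences between ages or fractions came from joint fits. Standard errors (SE) are the log2 fold change over the square root of F. Levels in CPM were computed from the deposited counts with TMM scaling. Exact intervals cover counting error only. Low-count filters left 14142 to 15971 genes in each experiment. The scripts were tested on simulated data.

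Members were taken by gene name and kept with 10 reads in 3 libraries of a table. The members and the other lists were chosen with earlier results of these data known. The text names the TIMPs always. In each comparison it names called members averaging 1 CPM or more in whichever group was higher, up to 12 per direction (6 for wild type JQ1, interaction and joint comparisons), ranked by size of change, with family members beside them. Alternatives were RLE scaling, DESeq2 1.42.0, no low-count filter, a replicate block, only the compared libraries, a 2-fold minimum, leaving out each library and, at 20 weeks, the number of digits in the animal number as a covariate.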

Additional observations from a re-analysis of the deposited data

Results flagged for a closer look

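For 5 members the log2 difference between PLNR9C and wild type with vehicle itself differed between cardiomyocytes and non-myocytes in the edgeR fit of both fractions. The cardiomyocyte difference minus the non-myocyte difference was 4.50 for Adamts20, 2.32 for Adamts8, -2.83 for Adamts3, -2.03 for Adamts7 and -1.21 for Adamts6. The Adamts8 call was lost without PLNR9C-vehicle cardiomyocyte replicate 3 (adjusted p = 0.061) or wild type-vehicle cardiomyocyte replicates 1 (0.060) or 3 (0.065). The Adamts6 call was lost without wild type-vehicle replicate 1 of the cardiomyocytes (0.098) or of the non-myocytes (0.057).

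In the ventricle, the same genotype difference changed between the ages. The difference at 20 weeks minus that at 8 weeks was 3.10 for Adamtsl2, 2.90 for Adamts20, 1.90 for Mmp16, 1.82 for Adamts2, 1.22 for Mmp23 and 1.17 for Adamtsl1. It was -3.82 for Mmp13, -1.42 for Mmp9, -1.34 for Adamts7 and -0.92 for Mmp15. The Adamtsl1 call was lost in 7 of the 12 fits that left out 1 library: without 8-week PLNR9C-vehicle replicates 1 (0.075) or 3 (0.081), 8-week wild type-vehicle replicates 2 (0.089) or 3 (0.102), 20-week PLNR9C-vehicle replicate 2 (0.083), or 20-week wild type-vehicle replicates 1 (0.076) or 2 (0.051). The ages came from separate tables and animals, so age and table cannot be told apart.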

How the results depend on the processing

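Of 306 calls of members over all comparisons, 230 held under every alternative other than the 2-fold minimum and 76 were lost under at least 1 of them. Leaving out each library in turn gave, for genotype, 22 to 26 called members at 20 weeks, 7 to 11 at 8 weeks, 13 to 16 in the cardiomyocyte fraction and 15 to 18 in the other fraction. For JQ1 in PLNR9C the ranges were 12 to 16, 12 to 15, 2 to 17 and 7 to 13 in that order of experiments, and for JQ1 in wild type 10 to 11, 12 to 16, 0 to 2 and 6 to 7. For PLNR9C with JQ1 against wild type with vehicle they were 20 to 25, 18 to 21, 19 to 27 and 20 to 22. They were 36 to 38 between fractions, 3 to 6 for the genotype difference between fractions, 12 to 14 for that between ages, and 0 for every interaction.

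With a 2-fold minimum, calls at 8 weeks numbered 3 for genotype, 4 for JQ1 in PLNR9C, 4 for JQ1 in wild type and 8 for PLNR9C with JQ1 against wild type with vehicle. JQ1 then gave 5 calls in PLNR9C and 6 in wild type at 20 weeks, 4 in PLNR9C cardiomyocytes, and 6 in PLNR9C and 2 in wild type non-myocytes, where PLNR9C with JQ1 against wild type with vehicle gave 11. The interaction at 20 weeks had 1 call, Adamts7, by DESeq2, 1 without a filter and 1 with the replicate block (0.045). JQ1 in wild type cardiomyocytes had 5 by DESeq2, 1 with the replicate block and 7 with only the compared libraries, which left 0 for PLNR9C cardiomyocytes. The cause was not tested.

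Log2 fold changes that did not pass the test and changed sign when 1 library was left out ranged from -0.29 to 0.084 for Timp4 by genotype at 8 weeks and, for JQ1 in PLNR9C, from -0.090 to 0.014 for Timp2 and -0.26 to 0.11 for Timp3 at 20 weeks, and from -0.22 to 0.35 for Timp1 and -0.15 to 0.87 for Timp3 in non-myocytes. Timp2 at 20 weeks was also 0.011 with the animal-number covariate. Within an experiment replicate numbers gave no sign of pairing the libraries: same-numbered libraries correlated between -0.20 and 0.30 in their deviations from group means. Whether cardiomyocyte and non-myocyte libraries of the same number were paired was not tested. With the replicate block 10 calls were lost, among them the higher level of Adamts7 in cardiomyocytes than in non-myocytes of wild type (0.092) and the JQ1 rise of Mmp17 in wild type cardiomyocytes (0.052), while the genotype difference of Adamts7 between fractions passed (0.0058). Depth limits Mmp3, Mmp13 and wild type Timp1, which rest on few reads per library.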
